A study of Rattus norvegicus with 12 samples.

Results

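The baseline microRNA content of rat serum was described from the 3 control libraries of a study of 12 serum libraries. The controls were male Sprague-Dawley rats (Jcl:SD) aged 7 weeks that received only the vehicle, sterile distilled water. The protocol gives 5 rats per group and RNA from 200 uL of serum, and blood was drawn under anesthesia, with no time after the vehicle stated for the controls. No label says whether a library held 1 animal or a pool. The remaining groups received caffeine, dextromethorphan or both and enter no comparison here. The control libraries are named ctrl1, ctrl3 and ctrl5 after their columns, and these numbers differ from those in the sample titles. After rows with the same name were summed, the table held 752 mature microRNA names. Of these, 387 (51.5%) were above 0 in all 3 control libraries and are the members described. A further 104 were above 0 in 1 or 2 control libraries, with at most 8 reads, and 261 were at 0 in all 3.

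MicroRNAs are short RNAs cut from hairpin precursors, first in the nucleus and then by Dicer in the cytoplasm. Each hairpin has a 5p and a 3p arm, and usually one arm is loaded into an Argonaute protein and kept while its partner is degraded. The seed, a short stretch near the 5′ end of the loaded strand, pairs with target messenger RNAs, so microRNAs with the same seed share many predicted targets. Serum has no cells of its own to transcribe them: its microRNAs come from blood cells, platelets, the vessel wall and organs such as the liver, and travel in protein complexes and vesicles.

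The mature sequences, from the RefSeq table of build GRCr8, matched 359 members by name and are printed 5′ to 3′ with bases 2 to 8, the seed, in capitals. The first set holds microRNAs that led the libraries. They carry different seeds except miR-92a-3p and miR-25-3p, which share one.
miR-191a-5p: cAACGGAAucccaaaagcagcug
miR-16-5p: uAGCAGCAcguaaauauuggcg
miR-223-3p: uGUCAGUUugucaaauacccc
miR-128-3p: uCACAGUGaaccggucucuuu
miR-122-5p: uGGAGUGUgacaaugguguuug
miR-140-3p: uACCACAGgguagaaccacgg
miR-92a-3p: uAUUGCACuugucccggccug
miR-25-3p: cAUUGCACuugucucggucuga
The second set is the let-7 family, the largest group of members with a common seed. All 9 carry GAGGUAG, and they differ only outside it.
let-7c-5p: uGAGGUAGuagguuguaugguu
let-7b-5p: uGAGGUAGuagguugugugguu
let-7i-5p: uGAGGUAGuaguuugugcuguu
let-7a-5p: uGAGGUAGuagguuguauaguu
let-7f-5p: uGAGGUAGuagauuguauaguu
let-7g-5p: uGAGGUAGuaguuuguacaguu
let-7d-5p: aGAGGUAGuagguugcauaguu
let-7e-5p: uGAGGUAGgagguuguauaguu
miR-98-5p: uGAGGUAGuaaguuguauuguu
The third set holds pairs that differ by a single base outside the seed and were present at similar or very different levels.
miR-23a-3p: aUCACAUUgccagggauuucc
miR-23b-3p: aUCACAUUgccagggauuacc
miR-103-3p: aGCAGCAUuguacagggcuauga
miR-107-3p: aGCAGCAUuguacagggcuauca
miR-29a-3p: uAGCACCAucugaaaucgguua
miR-29c-3p: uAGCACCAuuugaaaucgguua
miR-30a-5p: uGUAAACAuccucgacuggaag
miR-30e-5p: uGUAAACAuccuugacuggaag
The last set holds both arms of miR-126a, which were at similar levels, the 3p arm of let-7d, and 3 microRNAs used as marks of muscle and red cells.
miR-126a-5p: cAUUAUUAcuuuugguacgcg
miR-126a-3p: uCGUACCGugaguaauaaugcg
let-7d-3p: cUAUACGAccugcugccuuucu
miR-206-3p: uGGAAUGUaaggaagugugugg
miR-1-3p: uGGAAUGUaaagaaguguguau
miR-451-5p: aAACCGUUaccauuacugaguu

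A few sequences made up most of the serum microRNA. miR-191a-5p, transcribed in blood cells and many other tissues, took 33.9% of the reads assigned to listed microRNAs in ctrl1, 39.3% in ctrl3 and 35.7% in ctrl5 (36.3% ± 2.79, SD, n = 3). miR-16-5p, abundant in red cells and most other cells, took 9.90%, 9.54% and 9.50%. miR-223-3p, the myeloid microRNA found in neutrophils and platelets, took 6.45%, 6.66% and 5.79%. Each of these was above the next in every library without overlap, and per unit length (FPKM) miR-191a-5p stood 3.27-fold, 3.94-fold and 3.59-fold above miR-16-5p. In each library 3 names held 50% of the reads. The 10 most abundant names held 73.6%, 75.8% and 74.9% (74.8% ± 1.12), and the 100 most abundant 99.1%. It took 27, 25 and 26 names to reach 90%, and 98, 93 and 95 to reach 99%.

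**Figure D1:**
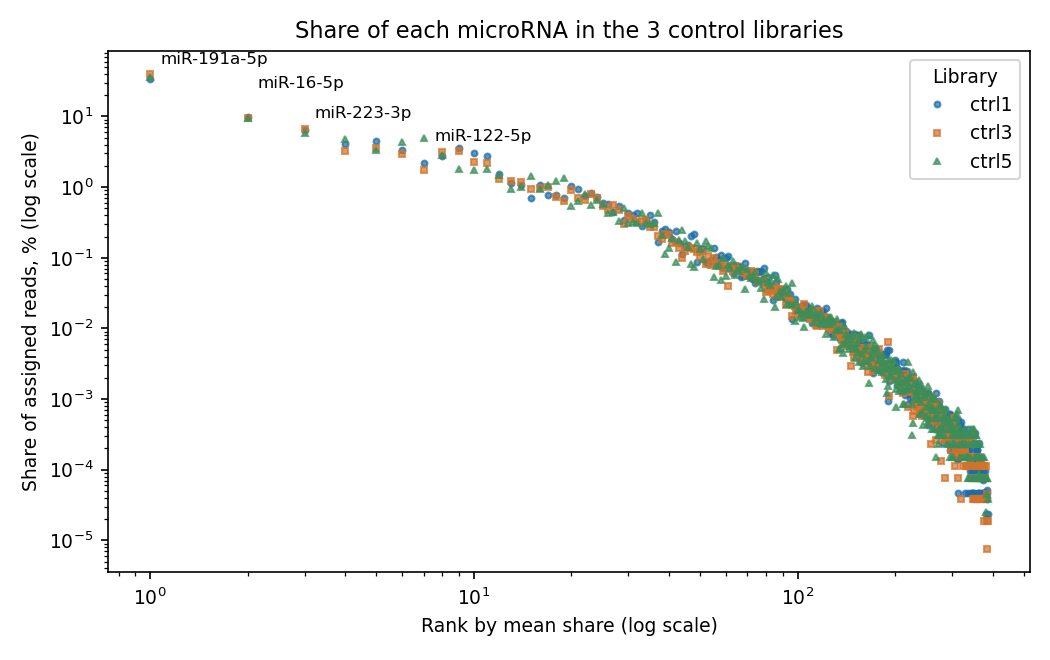
Share of assigned reads (log scale, %) of each member against its rank (log scale) in the 3 control libraries, one mark style per library. The first name stands above 33% in every library, and the name at rank 20 lies at 0.834% on average.

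Below the first 3 names the order was less firm. let-7c-5p (4.03%, 3.29% and 4.86% in ctrl1, ctrl3 and ctrl5) and let-7b-5p (3.31%, 2.95% and 4.30%) are members of the let-7 family, which restrains growth genes in differentiated tissues. miR-128-3p, best known from neurons, took 4.54%, 3.61% and 3.38%. miR-122-5p, by far the most abundant microRNA inside liver cells, took 2.16%, 1.75% and 4.95%, so that ctrl5 lay far above the other libraries. miR-140-3p, a microRNA of cartilage, took 2.74%, 3.18% and 2.87%. miR-92a-3p, from the miR-17-92 cluster and abundant in red cells and endothelium, took 3.57%, 3.24% and 1.83% and was lowest in ctrl5. miR-30d-5p took 3.07%, 2.28% and 1.77%, and miR-148a-3p 2.78%, 2.19% and 1.79%. Ordered by FPKM, the neighbours from let-7c-5p down to miR-148a-3p overlapped in range, so the order within each neighbouring pair was not settled by these libraries. Names further apart could be separate: let-7c-5p had at least 1.50e+06 FPKM and miR-148a-3p at most 1.32e+06. miR-148a-3p and let-7i-5p (1.43% ± 0.11) did not overlap, nor did let-7i-5p and miR-328a-3p (1.11% ± 0.14). The remaining neighbours among the 20 most abundant overlapped, and in all 14 of the 19 neighbouring pairs did. They were miR-342-3p, the lymphocyte microRNA miR-150-5p (0.70%, 0.95% and 1.43%), miR-25-3p, miR-125a-5p, let-7a-5p, let-7f-5p and miR-423-5p, with mean shares from 1.10% down to 0.834%. Every one of the 20 reached 1% in at least 1 library, and 13 members did so in all 3. Ordered by FPKM, 19 of the 20 stayed among the first 20.

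Depth set how far down these shares could be read. Assigned reads, recovered from FPKM and length, numbered 2104294 in ctrl1, 2625593 in ctrl3 and 1304868 in ctrl5. These are the smallest totals that put every row in steps of 0.01 reads, and the read counts given here rest on them. For the 20 most abundant names the 95% binomial interval (Wilson) of a share was at most 2.32% of that share to either side, which covers counting error only. A count of 0 allows a share of up to 0.000143%, 0.000114% and 0.00023% in the same libraries (3 reads). Of the 387 members 249 had at least 10 reads in every library, 58 had at least 1000, and 6 had a recovered count under 1 read in some library. The lowest were miR-450a-3p, with 0.5 reads in each library, miR-466c-5p and miR-665. Differences between sequences in how well the kit ligates and copies them were not measured here, so shares are shares of reads and not of molecules in serum.

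The libraries had similar profiles, with ctrl5 somewhat apart. Spearman's rho of the shares over the 387 members was 0.98 between ctrl1 and ctrl3, 0.96 between ctrl1 and ctrl5 and 0.97 between ctrl3 and ctrl5, a description across microRNAs that share their libraries. Of the 100 most abundant, 95 agreed within 1.5-fold between ctrl1 and ctrl3, against 64 between ctrl1 and ctrl5 and 72 between ctrl3 and ctrl5. In ctrl5, the shallowest library, 4 of these 100 were more than 2-fold above both other libraries: miR-122-5p, miR-125b-5p, miR-126a-3p and miR-206-3p. miR-203a-3p, a microRNA of skin and other stratified epithelium, was in ctrl3 under 50% of its share in each of the others (0.105%, 0.0395% and 0.0794%).

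The coefficient of variation (CV) of a share over the 3 libraries was compared with the CV that counting alone would give. Among the 10 most abundant the median CV was 17.6%, and counting alone would give 0.384%. For members beyond rank 100 and up to rank 200 the values were 22.2% and 9.67%, and beyond rank 200 they were 37.9% and 37.8%, so there spread between libraries and counting error were of one size. Depth and library differences both enter the spread, and their parts were not tested. Of the 100 most abundant, miR-206-3p, made in skeletal muscle, varied most (CV 71.7%; 0.0137%, 0.0148% and 0.0444%). It was followed by miR-122-5p (58.9%), miR-125b-5p (54.1%), the endothelial miR-126a-3p (53.2%) and miR-425-5p. The first 4 were highest in ctrl5 and miR-425-5p was lowest there, with 0.214%, 0.135% and 0.0733%. The steadiest were miR-130a-3p (CV 1.76%), miR-16-5p (2.27%), miR-760-3p (2.72%), miR-532-5p (3.02%) and miR-28-3p (3.41%). Of these 5, only miR-16-5p and miR-28-3p had a CV above what counting alone would give.

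**Figure D2:**
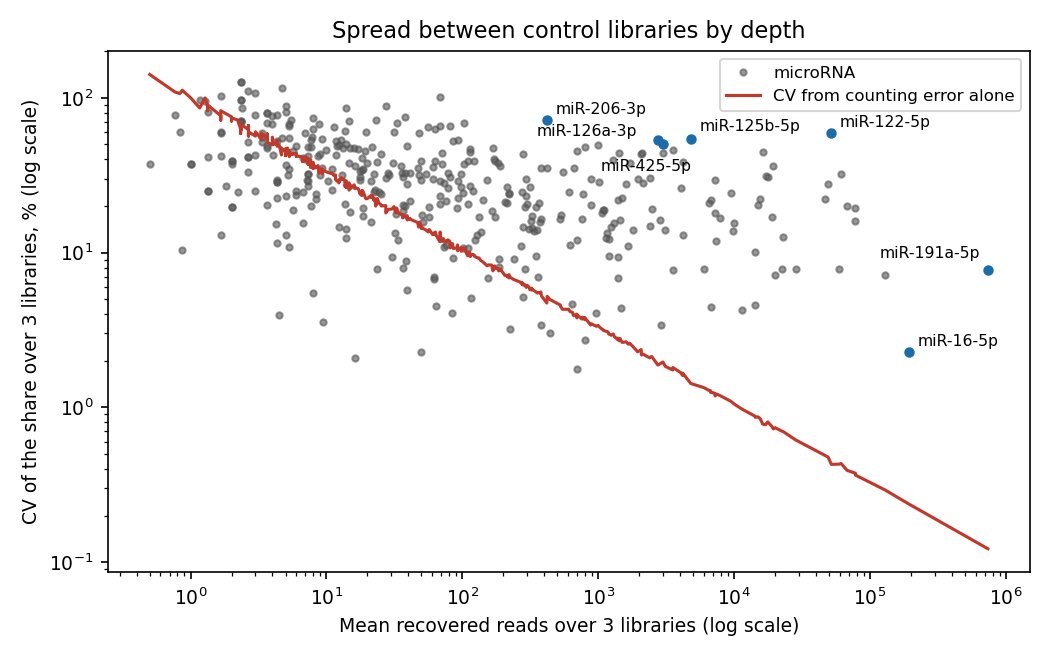
Coefficient of variation of the share over the 3 control libraries (log scale, %) against mean recovered reads (log scale), one grey point per member, with the CV from counting error alone as a line. Abundant members lie far above the line, miR-16-5p at 2.27% being the lowest of the first 10, and members with few reads lie around it.

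Most tested hairpins were represented mainly by one arm, and the 5p and the 3p arm led about equally often. Of 279 hairpin names with both arms listed, 199 had an arm above 0 in all 3 control libraries and were tested. Arms were paired by name, so a partner listed under a copy number, such as let-7c-1-3p, miR-128-1-5p or miR-92a-1-5p, formed no pair. The abundant let-7c-5p, miR-128-3p and miR-92a-3p (ranks 4, 5 and 9 by mean share) are therefore not in the arm results. The difference log2(5p FPKM + 30) − log2(3p FPKM + 30) was taken within each library. It passed at a limma adjusted p under 0.05 (Benjamini-Hochberg) for 183 of 199 names (92%): the 5p arm was higher in 91 (45.7%) and the 3p arm in 92 (46.2%). These shares are the background for the named hairpins, since a single called hairpin is the usual case. Of the tested names, 109 differed more than 8-fold on that scale, and 41 had an arm at 0 in all 3 libraries. Both arms were above 0 in all 3 libraries for 113 of the 199, of which 102 passed when tested alone. The others entered through their higher arm only, so their difference is partly set by the filter and the added 30 FPKM. Of the 20 tested hairpins with the highest level, 12 were 5p and 8 were 3p. Because no label assigns libraries to separate animals, these p-values concern libraries and not animals. Each rests on 2 residual degrees of freedom of its own hairpin and 60.8 prior ones, pooled over the tested hairpins of the same libraries. Very small p-values and the SEs thus reflect mainly the pooled spread, not the spread of that hairpin alone.

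By level the 5p arms held more. They made up 74.4%, 75.5% and 78.0% of the FPKM of the tested hairpins, and 58.3%, 56.5% and 63.2% once miR-191a was left out. miR-191a-5p had 1.47e+07, 1.71e+07 and 1.55e+07 FPKM, and its 3p arm had 951, 994 and 362 reads. The 5p arm was 717-fold, 994-fold and 1231-fold higher in FPKM (log2 difference 9.90 ± 0.17, SE, limma adjusted p = 3.24e-54). miR-122-5p was 3835-fold, 3301-fold and 9290-fold above its 3p arm, which had 10.25, 12 and 6 reads. miR-16-3p had 3, 0 and 1 reads beside 208297, 250492 and 123970 for miR-16-5p, the widest log2 difference (16.21 ± 0.26). let-7b, miR-30d, let-7i and let-7g were also 5p, with log2 differences of 11.35 to 11.92. For miR-146a, induced in activated immune cells, the 3p arm was at 0 in every library, and the 5p arm was at least 2305-fold, 2488-fold and 2132-fold higher than 3 reads per library.

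Other abundant hairpins used the 3p arm. miR-223-3p was 92.8-fold, 103-fold and 89.3-fold above miR-223-5p (log2 difference -6.57 ± 0.17), and the partner arm still had 1603, 1850 and 926 reads. miR-140-3p was 40.5-fold, 50.6-fold and 30.6-fold above miR-140-5p, the arm first studied in cartilage. miR-148a-5p had 26, 14 and 2 reads beside 58472, 57521 and 23335 for the 3p arm. miR-328a-5p had 0, 0 and 1 reads, and miR-29a-5p 1, 3 and 3. For miR-320 the 5p arm had 0, 3 and 0 reads, and for miR-27b it was at 0 throughout, so that miR-27b-3p was at least 742-fold, 799-fold and 690-fold higher than 3 reads. Log2 differences of arms with so few reads depend on the added 30 FPKM.

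In 16 hairpins the arms did not pass as different. The most abundant was miR-126a, the microRNA of endothelial cells, whose arms had ranks 44 (3p) and 52 (5p). Its 5p arm had 1850, 2165 and 2235 reads and its 3p arm 2399, 2612 and 3236. The 3p arm was 1.24-fold, 1.15-fold and 1.38-fold higher in FPKM (log2 difference -0.33, 95% interval -0.74 to 0.09, limma adjusted p = 0.129), the same direction in all 3 libraries. miR-361 (log2 difference 0.43, adjusted p = 0.0715 by limma), miR-324 (0.13, adjusted p = 0.624), miR-181c (-0.47, adjusted p = 0.185) and miR-365 (0.17, adjusted p = 0.632) came next. For miR-361 the 5p arm was higher in ctrl1 and ctrl3 and lower in ctrl5, and without ctrl5 the difference was 0.75 and passed. miR-181c also passed without ctrl5 (-0.69).

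Some hairpins, chosen after their values were seen, lay between these extremes or had the arm less often cited as the main one. In let-7d the 3p arm led: let-7d-3p was 2.57-fold, 3.35-fold and 2.35-fold above let-7d-5p. miR-142-5p was 3.99-fold, 4.42-fold and 3.50-fold above miR-142-3p, the haematopoietic microRNA more often quoted. miR-106b-3p was 44.4-fold, 45.0-fold and 42.0-fold above miR-106b-5p, and miR-503-3p 2.95-fold, 3.45-fold and 4.15-fold above miR-503-5p. The ratio for miR-151 differed between libraries: miR-151-3p was 70.9-fold, 45.3-fold and 10.6-fold above miR-151-5p.

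**Figure D3:**
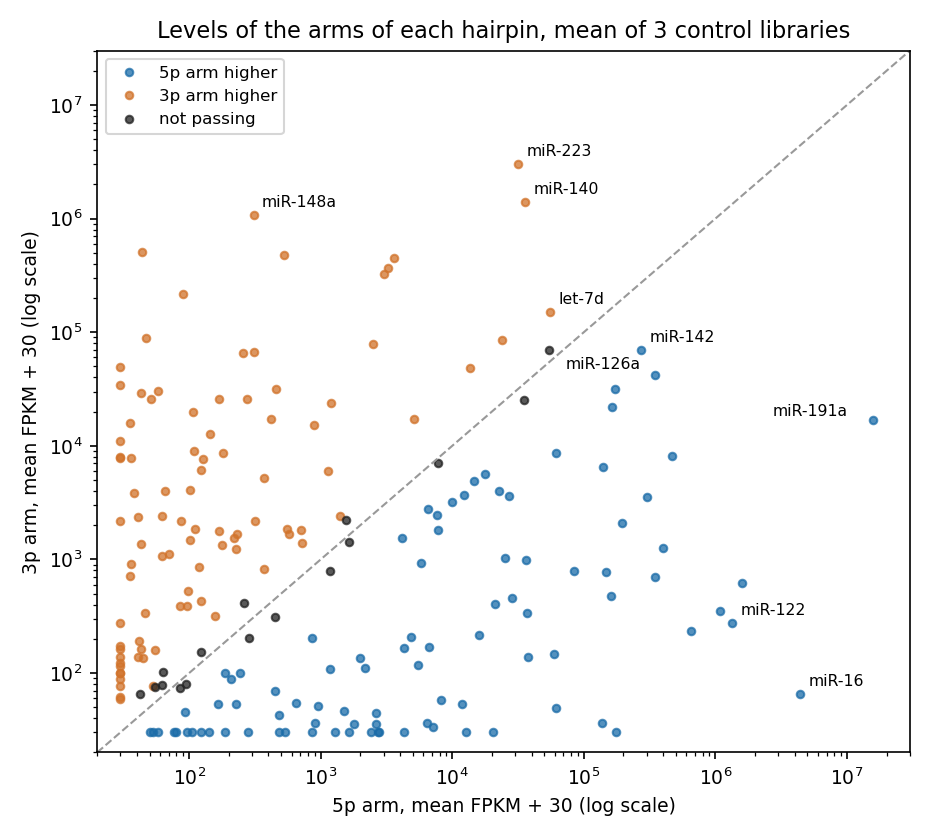
Mean FPKM + 30 of the 3p arm against the 5p arm over the 3 control libraries (log axes), one point per tested hairpin name, coloured by which arm was higher at a limma adjusted p under 0.05. The 91 names with the 5p arm higher and the 92 with the 3p arm higher lie on either side of the dashed line of equality, and the 16 that did not pass lie along it.

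Grouped by seed, the 359 members with a sequence carried 292 different seeds, and 254 of these seeds belonged to a single member. The 38 seeds with several members covered 105 members and 34.6% of reads. The 8 leading seeds among these members held 75.2%, 77.7% and 78.8%. miR-30d-5p, at rank 10 by mean share, had no sequence in the table and enters no seed family. Its reads are missing from the seed GUAAACA of the miR-30 family, which might otherwise rank among the 8. After AACGGAA of miR-191a-5p came the let-7 seed GAGGUAG, with 9 members and 10.8%, 9.30% and 13.7% of reads (11.3% ± 2.24), highest in ctrl5. let-7c-5p held 36.0% of that family, so the second most abundant seed was spread over several microRNAs. The miR-15/16 seed AGCAGCA, which targets cell cycle genes, behaved otherwise: of its 9.76% ± 0.22, miR-16-5p held 98.9%, and miR-15b-5p, miR-322-5p, miR-195-5p and miR-497-5p shared the rest. The seed AUUGCAC took 4.65%, 4.22% and 2.77%, with 74.2% of it in miR-92a-3p, followed by miR-25-3p, miR-92b-3p, miR-363-3p and miR-32-5p. The seeds of miR-223-3p (GUCAGUU), miR-128-3p (CACAGUG), miR-122-5p (GGAGUGU) and miR-140-3p (ACCACAG) each had 1 member.

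Members that differ by a single base were at very different levels in some pairs and not in others. Positions count from 1 at the 5′ end, with the first-named microRNA's base first. let-7c-5p and let-7b-5p (A17G) differed 1.15-fold in mean share, let-7a-5p and let-7f-5p (G12A) 1.02-fold, and miR-30a-5p and miR-30e-5p (C13U) 1.04-fold. let-7c-5p was 4.48-fold above let-7a-5p (G19A), and let-7a-5p 25.6-fold above let-7e-5p (U9G). miR-23a-3p was 42.3-fold above miR-23b-3p (U19A), miR-103-3p 38.8-fold above miR-107-3p (G22C), miR-29a-3p 8.51-fold above miR-29c-3p (C10U) and miR-19b-3p 8.55-fold above miR-19a-3p (C11U). miR-27a-3p was 1.72-fold above miR-27b-3p (C19U). These pairs have equal lengths, so the ratios hold for FPKM too. The ratios of such near-identical members are uncertain, since they depend on how the authors assigned reads.

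**Figure D4:**
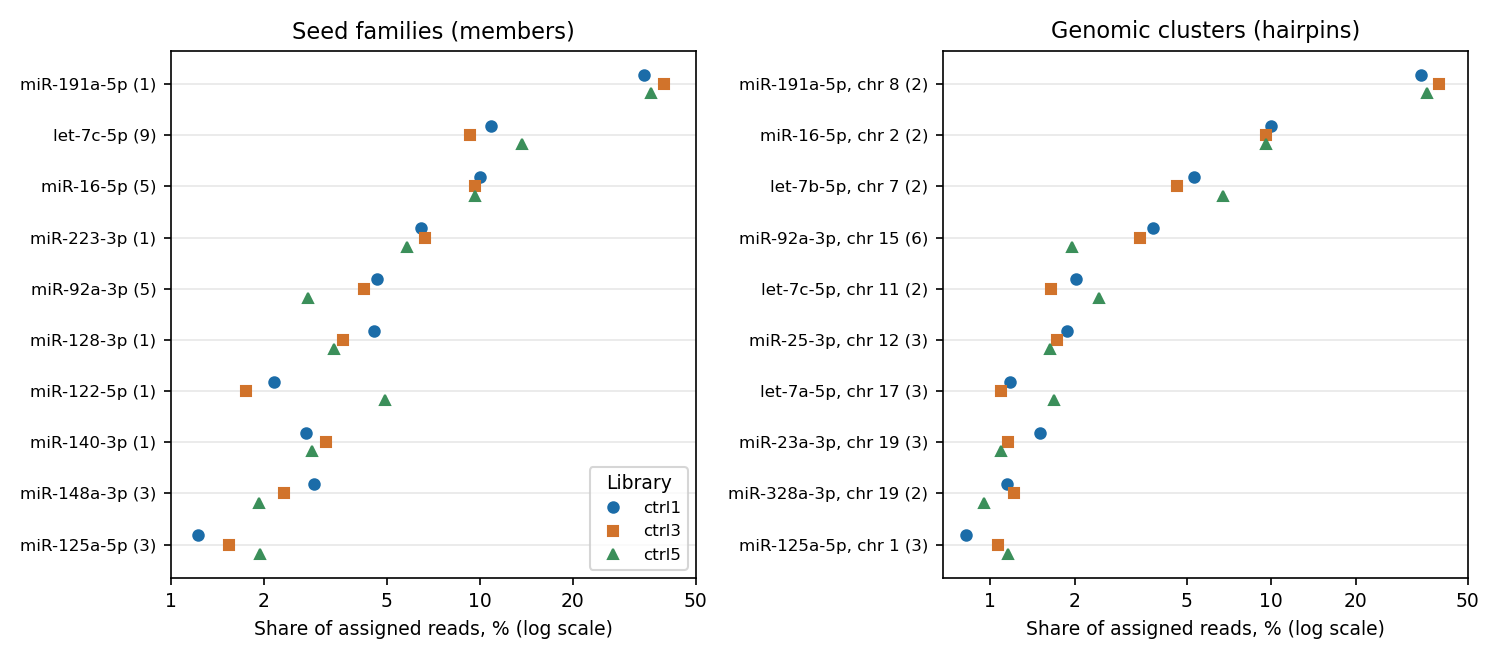
Summed share of assigned reads (log scale, %) of the leading seed families, named by their most abundant member with the number of members, and of the leading genomic clusters, named likewise with the chromosome and number of hairpins. Marks are the 3 control libraries. miR-191a-5p leads both panels, and the let-7 family lies between 9.30% and 13.7%. Members without a sequence, miR-30d-5p among them, enter no seed family.

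The abundant members lay on several chromosomes, and the share of reads in genomic clusters rested mostly on a single cluster (coordinates in rn6 as deposited). Listed rows on a strand with successive starts within 10 kb formed 48 clusters of at least 2 hairpins with a member. These clusters included 187 of the 387 members and held 66.2%, 69.4% and 67.9% of reads. The leading one, chr8:117354378-117354892 on the plus strand, holds miR-191a and miR-425 and took 36.5% ± 2.76, of which miR-191a-5p was 99.5%. miR-425-5p, cut from the same short region, thus had a far lower share, and it was lowest in ctrl5 where miR-191a-5p was not. The pair miR-15b and miR-16 at chr2:165605942-165606150 (plus strand) took 9.71% ± 0.22. let-7c-2 and let-7b at chr7:126590225-126590708 (plus) took 5.56% ± 1.09, and miR-99a with let-7c-1 at chr11:16052165-16052954 (plus) 2.03% ± 0.39. The oncogenic miR-17-92 cluster at chr15:100179892-100180653 (plus), with 6 hairpins, took 3.80%, 3.41% and 1.95%, lowest in ctrl5. Of its reads 90.9% were miR-92a-3p. Its paralogue at chr12:19307351-19307822 (minus), with miR-106b, miR-93 and miR-25, took 1.75% ± 0.12, of which miR-25-3p made up 56.8%.

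The cluster with the most hairpins was a minor part of serum. It was part of the Dlk1-Dio3 region, a set of microRNA genes expressed from the maternal allele and known from brain and embryo, with 36 hairpins at chr6:133857715-133898880 on the plus strand. Of its 67 rows 19 were members, together 0.0253%, 0.0157% and 0.0373% of reads, led by miR-382-5p. Reads on the X chromosome, with 65 member rows of 125, came to 7.95% ± 0.20, led by miR-223-3p.

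45 members were listed at several loci and held 14.6% of reads. Of the 40 with 2 copies, 35 had under 55% of their FPKM at the higher copy. miR-92a-3p departed from this, with 96.4% at chr15:100180633-100180653 on the plus strand and 3.56% at its X copy. For miR-128-3p 57.1% lay at chr13:44916583-44916603 (plus) and 42.9% on chromosome 8. The copies of a mature microRNA have the same sequence, so the locus of origin rests on how the authors assigned reads.

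To describe tissue origin, 12 lists of microRNAs known from particular tissues were summed. They named 93 listed microRNAs, of which 80 were members. Some written names were not listed under that spelling and could not be summed. These were the miR-486 names (erythrocyte), miR-885 arms (hepatocyte), miR-215 names (liver, gut and kidney) and miR-197-3p (platelet). The 307 members in no list held 29.2%, 25.4% and 27.8% of reads, led by let-7c-5p, let-7b-5p and miR-30d-5p. The 6 listed members that many tissues make, miR-191a-5p, miR-16-5p, miR-92a-3p, miR-25-3p, miR-24-3p and miR-21-5p, held 50.7%, and each list was also summed without them. A list describes where its microRNAs are known to be made. It does not measure what share a tissue released, and a higher share cannot be told apart from less of other microRNAs.

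By summed share the lists of blood cells led, mainly through miR-223-3p and members made in many tissues. All 12 leukocyte names were members and held 10.0%, 10.3% and 10.0%, or 9.76% ± 0.20 without miR-21-5p. miR-223-3p made up 62.3% of the list, followed by miR-342-3p, miR-150-5p and miR-142-5p. Without miR-223-3p it held 3.82%. miR-223-3p is also on the platelet list, of which 7 of 8 names were members. That list held 43.4% ± 2.92 with miR-191a-5p and miR-24-3p and 6.63% ± 0.35 without them, nearly all of it miR-223-3p. miR-150-5p was highest in ctrl5 and miR-223-3p lowest there, and the ratio of miR-223-3p to miR-150-5p in FPKM was 9.66, 7.36 and 4.24.

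The red-cell list held far less without its members made in many tissues. All 9 listed names were members and held 14.7%, 13.8% and 12.3%, but 0.121%, 0.0925% and 0.0569% without miR-16-5p, miR-92a-3p and miR-25-3p. Most of this remainder was miR-185-5p, with 0.110%, 0.0827% and 0.0485%. The remainder lacks miR-486 and its arms, which were written for the list but not listed under these names, so their level cannot be read here. miR-451-5p, the most specific microRNA of red cells, was at rank 167 with 99, 139.5 and 38 reads, or 0.00431% ± 0.00125. miR-16-5p was 2104-fold, 1796-fold and 3262-fold above it in FPKM. From miR-144, cut from the same primary transcript, the 5p arm had 40, 40 and 30 reads and the 3p arm 4, 12 and 5. The miR-451 hairpin is known for being matured by Argonaute 2 without Dicer.

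The liver and vessel wall lists held less than the leukocyte and platelet lists, an order that rests on miR-223-3p, which is in both. Without miR-223-3p the leukocyte list held 3.56%, 3.64% and 4.25% in ctrl1, ctrl3 and ctrl5, in ctrl5 less than the hepatocyte list. The platelet list without its members made in many tissues was nearly all miR-223-3p. miR-122-5p made up nearly all of the hepatocyte list (2 of 2 listed names), which took 2.16%, 1.75% and 4.95%, and 1.96% on average without ctrl5 against 2.95% with it. miR-122-5p was 23.7-fold, 13.7-fold and 29.1-fold above miR-192-5p, a microRNA of liver, gut and kidney. The 8 members of that liver, gut and kidney list held 0.187% ± 0.037, led by miR-192-5p (66.2% of the list), miR-196b-5p, miR-194-5p and miR-31a-5p. Endothelium and smooth muscle, with 10 of 11 names, held 1.57% ± 0.10, led by miR-143-3p (0.82%, 0.79% and 0.55%). There miR-125b-5p (0.166%, 0.202% and 0.431%) and miR-126a-3p (0.114%, 0.0995% and 0.248%) were highest in ctrl5 while miR-143-3p was lowest there.

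The brain and stroma lists rested on a single name each. The brain list held 4.57%, 3.63% and 3.40%, of which miR-128-3p was 99.4%. The remaining brain names held 0.0315%, 0.0189% and 0.0194%, led by miR-383-5p, miR-138-5p and miR-219a-5p, and miR-124-3p, the defining microRNA of neurons, was at 0 in all 3 libraries, as was miR-344a-3p. In all 8 of 13 brain names were members. The stroma and cartilage list held 3.21% ± 0.21 with all 8 names members. Of this 91.3% was miR-140-3p, and the rest held 0.278%, led by miR-199a-3p.

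Epithelium, muscle and endocrine tissue were minor. All 11 epithelial names were members and held 0.174%, 0.0979% and 0.162%, with 51.7% of the list in miR-203a-3p, followed by miR-200c-3p, miR-182 and miR-183-5p. Striated muscle names, 6 of 8 members, held 0.0195%, 0.0196% and 0.0583%, or 0.0196% without ctrl5 against 0.0325% with it. miR-206-3p, of skeletal muscle, made up 74.7%, and miR-1-3p, made in heart and skeletal muscle, had 73, 64 and 107 reads. miR-1b and miR-133a-3p came next, and the cardiac miR-208b-3p was at 0 in all 3. miR-375-3p, of pancreatic islets and gut endocrine cells, had 424, 574 and 137 reads and made up 60.2% of the endocrine list (0.0291% ± 0.0035, 2 of 3 names members), with miR-7a-5p the other member. None of the 4 names of testis and pancreatic acinus was a member: miR-202-5p, miR-202-3p and miR-216a-5p were at 0 and miR-217-5p had 2 reads in ctrl5 alone.

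**Figure D5:**
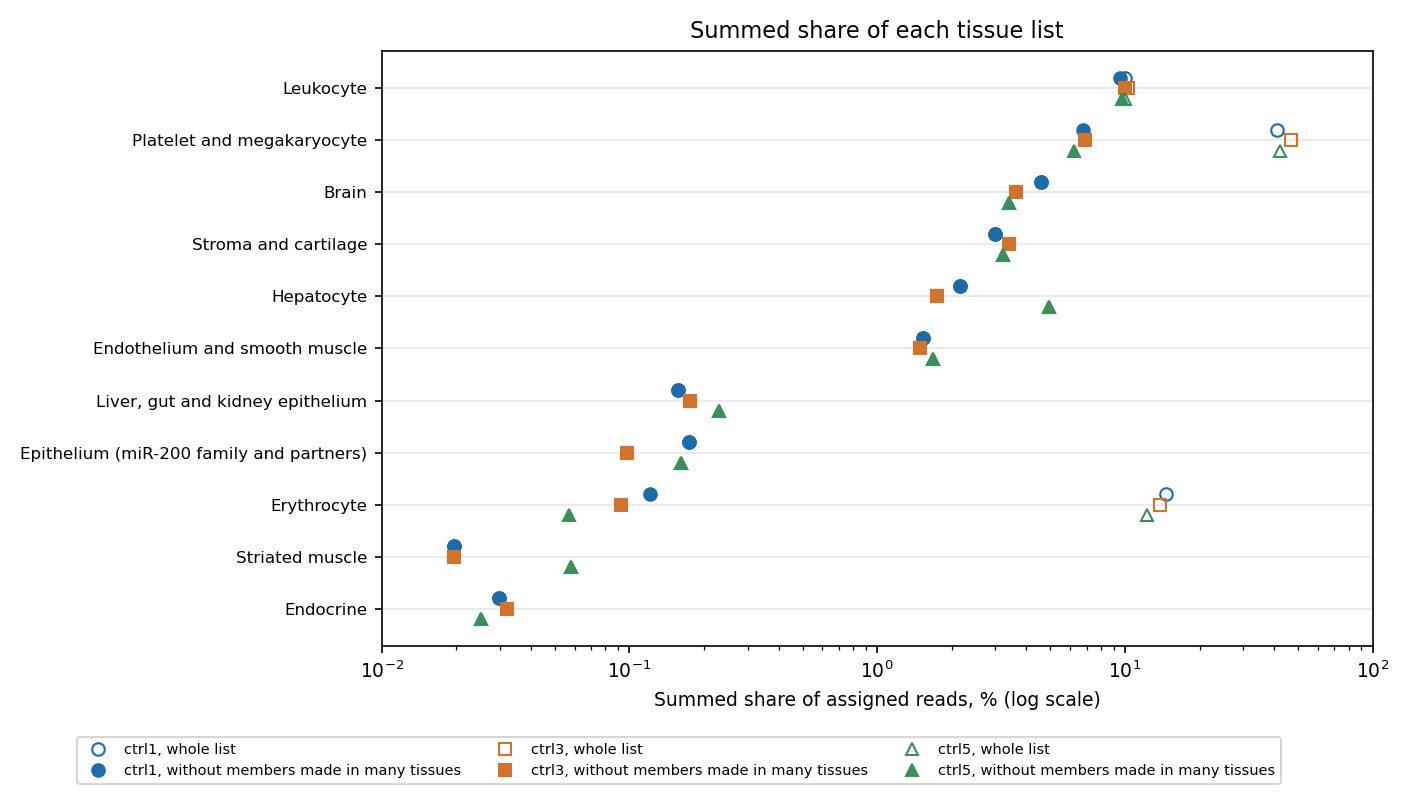
Summed share of assigned reads (log scale, %) of each tissue list in the 3 control libraries, with all members (open marks) and without members made in many tissues (filled marks). The platelet and erythrocyte lists move furthest when these are left out, the platelet list from a mean of 43.4% to 6.63% and the erythrocyte list from 12.3% or more to 0.121% or less.

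The abundant members also differed from the rest in their first base. U begins the mature sequence of 150 of 359 members (41.8%), of 54% of the 100 most abundant, of 85% of the first 20 with a sequence and of 36% of the lowest 100. Among 325 listed names that were not members it was 30.5%. Argonaute proteins are known to hold a 5′ U well. By reads of the members with a sequence, the share with a first U was 56.9%, 52.2% and 56.2%, because miR-191a-5p starts with C. Without it the share was 88.7%, 89.2% and 89.8%. Members of 22 nucleotides numbered 178, of 21 nucleotides 81 and of 23 nucleotides 62. Those of 23 took 40.4%, 45.6% and 41.1% of the reads of members with a sequence, mainly through miR-191a-5p. The median G and C content was 50% over members and 45.5% in the first 20. These are descriptions without a test.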

How the data were processed

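MicroRNAs were sequenced by the submitters from RNA isolated with the miRNeasy Micro Kit, using the QIAseq miRNA kit with molecular indices, per the labels' protocols. The authors deposited FPKM per mature microRNA row, with its length and position. STAR 2.7.10a, cutadapt 3.7, DESeq2 1.20.0, Subread 2.0.1, featureCounts and genome build rn6 are named, per the submitters' processing notes; their settings, and whether molecular indices were collapsed, are not given in the sources used here. FPKM times length summed to one constant per library, so values are relative to reads assigned to listed microRNAs. Reads were recovered in steps of 0.01, and 65.4% to 75.0% of values above 0 were whole within 0.001. 1 read on 22 nucleotides was worth 17.3 to 34.8 FPKM.

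Rows of one name were summed (836 rows, 752 names, 69 at several loci), and a share is FPKM times length over its sum. Arms were compared with limma 3.58.1 in R 4.3.3 as an intercept-only model of the within-library difference, with mean-variance trend and empirical Bayes moderation, two-sided, with a pseudocount of 30 FPKM (the 10th percentile of values above 0, rounded). Its script was tested on simulated data. Other values were made with Python 3.11.15, pandas 2.3.3 and matplotlib 3.10.9, and carry no test. The 28 members without a sequence in the table (5.11% of reads) enter no seed family. The text names the 20 most abundant members, the 8 leading seeds and 6 leading clusters, and up to 4 members and all names at 0 per list. Of the tested hairpins it names the 10 highest, the 5 most 5p, the 5 most 3p and the 5 highest not passing. It also names the 5 highest and 5 lowest CVs in the first 100. The members and lists were chosen with earlier results of these data known. Alternatives covered the pseudocount, the filter, shares by FPKM, the seed and cluster definitions, and leaving out each library.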

Additional observations from a re-analysis of the deposited data

How the results depend on the processing

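Of 313 alternatives over 52 results, 297 left the result within its limits. For a share the limit was the SD over the control libraries, for a count a fixed fold change, and for a hairpin the same direction and the same call. Leaving out a library cannot move the mean of a share that far. These checks on shares are counted among the 297, but they could not fail and say nothing about stability. With at least 10 reads required in each library there were 249 members, and without miR-191a-5p the 10 most abundant names held 64.0% of reads. Without members made in many tissues the erythrocyte list held 0.0901%, the platelet list 6.63% and the leukocyte list 9.76%; as a share of the FPKM sum the leukocyte list held 10.5%. Chosen after seeing the data, leaving out the leading name gave 3.82% for leukocytes (without miR-223-3p), 0.278% for stroma (without miR-140-3p) and 0.0233% for brain (without miR-128-3p). Where both arms had to be above 0 in all libraries, 102 of 113 hairpins passed, 50 with the 5p and 52 with the 3p arm higher, fewer hairpins being tested. Leaving out a library gave 174 to 191 passing hairpins. Leaving out a library moved miR-365 between 0.51 and -0.056, the latter without ctrl5 and neither passing. Without ctrl5 miR-361 (0.75) and miR-181c (-0.69) passed; miR-361 also passed with a pseudocount 4 times as large (0.43). Taking the arms of different libraries as unpaired, with no replicate block, 179 hairpins passed, all of them among the 183. No hairpin that passed both in the main setting and in an arm alternative changed direction between them. Depth limits the low end of the list: 138 members had under 10 reads in some library.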
